A study of Nannochloropsis oceanica with 18 samples.

Results

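The comparison described here set Nannochloropsis oceanica cultures labelled as a knockout of the nuclear gene NO07G02030 against wild-type cultures, both grown at high light. It rests on 6 of the 18 libraries of the study, 3 in each group, and on all 10493 genes of the deposited tables, of which 9794 had enough counts to be tested. The HL_KO group (strain IMET1, genotype label NO07G02030-ko) and the HL_WT group (strain IMET1, genotype label WT) were incubated for 8 days in shaken flasks at 25 °C at a photon flux near 300 µmol per square metre and second. The NL_KO and NL_WT groups carried the same genotypes near 50 µmol per square metre and second and are given for comparison. A further pair of groups carried an overexpression label, and only the one at high light, HL_OE, is quoted. All strains first grew at the lower light. The sources used here do not say how the manipulated strains were made, or whether each is 1 clone. The labels enter "Colonial" as the cell type, and the flasks are described as biological replicates. Each library averages over a whole culture, so a lower transcript level per cell and fewer cells with the transcript cannot be told apart.

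Nannochloropsis is a unicellular marine alga of the eustigmatophytes, with a plastid derived from a red alga and with most of its genes in the nucleus. The plastid genome retains genes for the reaction centres of photosynthesis and for its own transcription and translation, and the mitochondrial genome retains core subunits of the respiratory chain. Strong light damages photosystem II, chiefly its D1 protein, and algae adjust photosynthesis, repair and storage of carbon when light exceeds what they can use. The files pair organelle genes with symbols but give nuclear genes as IDs without names, so nuclear results are given by ID and no function is assigned to them.

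The 6 high-light libraries held 14614662 to 16272447 counts each, and the libraries within each group were unlike each other. Correlations of log2 CPM (counts scaled to the library total) between replicates were 0.903 to 0.959 in HL_KO and 0.938 to 0.993 in HL_WT, against 0.881 to 0.971 between the groups. HL_KO replicate 2 and HL_WT replicate 1 stood apart the most. They scored 60.3 and 39.7 on the first principal component of the 12 knockout-labelled and wild-type libraries, which held 39.9% of the variance. HL_WT replicates 2 and 3 scored -20.9 and -22.7, and HL_KO replicate 1 scored -16.2. HL_KO replicate 3 lay between them at 25.9, and NL_KO replicates 2 and 3 scored 30.9 and 13.6. The strain difference was therefore measured against replicate differences of similar size. The organelle share of all counts was also high in both of these libraries, at 254.5 CPM in HL_KO replicate 2 and 235.6 in HL_WT replicate 1. HL_KO replicates 1 and 3 held 100 and 166.6 CPM, and HL_WT replicates 2 and 3 held 91.5 and 94.8 CPM. At normal light, NL_KO replicates 2 and 3 held 334.5 and 313.5 CPM. Fits that leave out some of these libraries are given below. The part of these differences in the results was not otherwise tested.

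**Figure D1:**
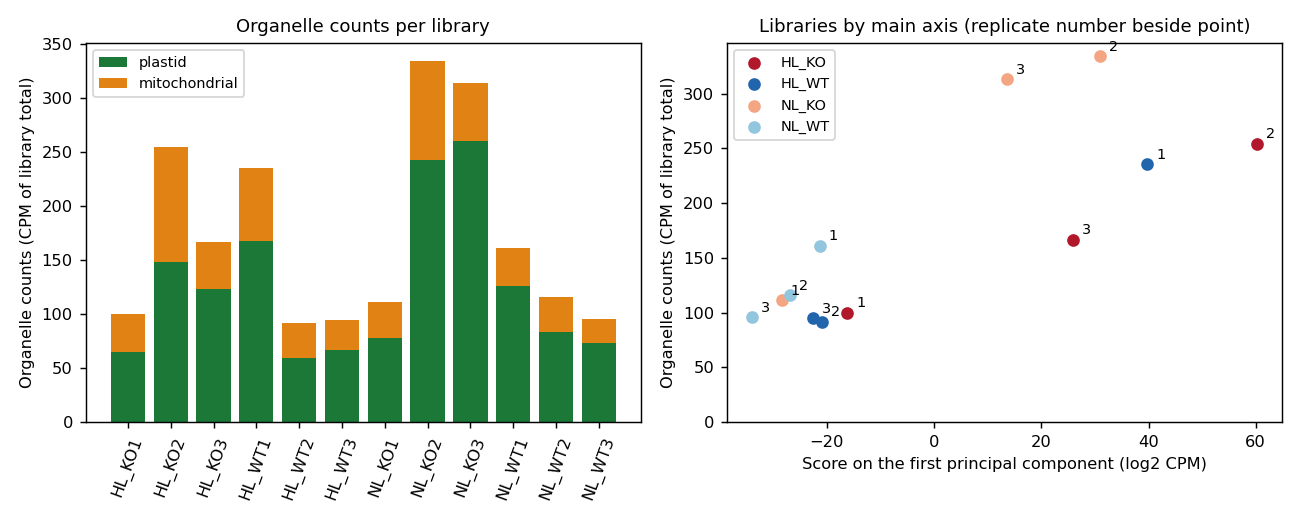
Left, plastid and mitochondrial counts (CPM of the library total) as stacked bars for each of the 12 libraries; right, the same organelle total against each library's score on the first principal component of log2 CPM, coloured by group with the replicate number beside each point. HL_KO replicate 2 and HL_WT replicate 1 lie at scores of 60.3 and 39.7, to the right of the other high-light libraries.

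The targeted gene was examined first. NO07G02030 stood at 26.8, 23.8 and 19.4 TPM (transcript abundance within a library, scaled for gene length) in HL_KO replicates 1 to 3. It stood at 11.7, 21.0 and 22.2 TPM in HL_WT replicates 1 to 3. The groups overlapped, and the knockout-labelled libraries had the higher mean, 23.3 ± 3.69 against 18.3 ± 5.79 TPM (mean ± SD, n = 3). On the log2 scale the difference was 0.41 (SE 0.27; edgeR adjusted p = 0.536), and a two-sided exact permutation test of TPM gave p = 0.3, adjusted p = 0.667 over 4 tests of single values, where 3 against 3 allows no p under 0.1. At normal light the order of the means was the other way, with 33.0, 14.5 and 17.8 TPM in NL_KO and 26.1, 29.0 and 32.3 TPM in NL_WT, again overlapping (log2 fold change -0.37 with SE 0.27, edgeR adjusted p = 0.703). The difference between light levels was 0.79 on the log2 scale (SE 0.38, edgeR adjusted p = 0.498). A transcript can persist when a gene is disrupted, so its level need not fall, but the label is not checked by it. The groups are therefore called by their labels throughout.

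At an adjusted p below 0.05, 10 of the 9794 tested genes (0.102%) were called, 7 higher and 3 lower in HL_KO than in HL_WT. All 10 differed by at least 2-fold, and in all 10 the HL_KO and HL_WT libraries did not overlap, against 16.9% of all tested genes with no overlap in either direction. The same libraries gave the calls, so this separation describes the 10 and adds no support. The 10 were nuclear IDs from 8 of the 30 ID series of the table. The adjusted p values lay between 0.0326 and 0.0485, the next gene had 0.0501, and 64 genes lay under 0.06, so the number called depends closely on the threshold. Leaving out any one of HL_KO replicates 1 to 3, HL_WT replicates 1 and 2, NL_KO replicate 3 or NL_WT replicate 2 ended all 10 calls. With 1 library left out the fold changes of the named genes kept their direction, NO08G03060 at -2.25 to -1.84, NO14G00440 at -1.83 to -1.54, NO13G01090 at 2.13 to 2.81 and NO15G01410 at 1.63 to 2.16 on the log2 scale. Without HL_WT replicate 3, 2 genes were called, 1 of them among the 10. Without NL_KO replicate 1 or 2, or NL_WT replicate 1 or 3, the count rose to 45, 54, 26 and 62. The 6 high-light libraries fitted alone gave 0 calls in edgeR, with 871 genes at an unadjusted p under 0.05, and 323 calls in DESeq2.

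**Figure D2:**
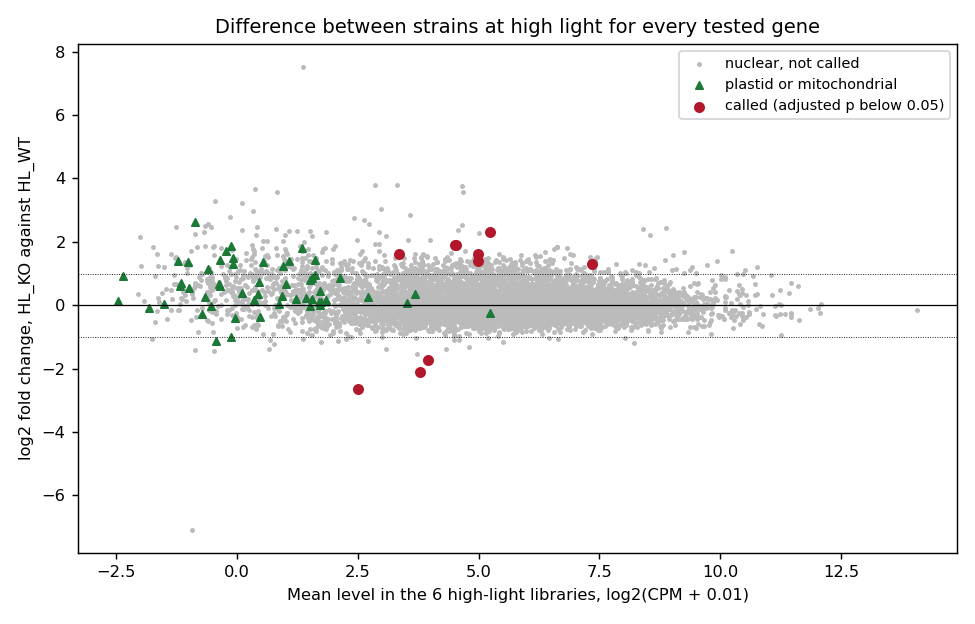
Log2 fold change of HL_KO against HL_WT for the 9794 tested genes, by mean level in the 6 high-light libraries on a log2(CPM + 0.01) axis. Red points are the 10 called genes, green triangles the 54 tested plastid and mitochondrial genes, and dotted lines mark 2-fold differences. More genes lie above the upper line (546) than below the lower one (30).

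Among the genes that fell, NO08G03060 had the smallest p of all tested genes. It stood at 13.0, 11.2 and 6.22 TPM in HL_KO replicates 1 to 3 and at 44.1, 48.5 and 45 TPM in HL_WT replicates 1 to 3. Every knockout-labelled library lay far below every wild-type library, and the wild-type libraries were close to each other, including HL_WT replicate 1. On the log2 scale the difference was -2.11 (SE 0.27; edgeR adjusted p = 0.0326), a 4.32-fold lower level. In HL_OE, which is compared with the same wild-type libraries, the gene stood at 40.3, 42.2 and 45.1 TPM, near the wild-type values. The ID directly before it in the table fell as well. That gene missed the level set for naming and is described after its values were seen. It held 35, 8 and 28 counts in HL_KO replicates 1 to 3 and 135, 200 and 132 in HL_WT replicates 1 to 3, with a log2 fold change of -2.63 (SE 0.42, edgeR adjusted p = 0.0417). Its counts were 0.0941 to 0.596 of those of NO08G03060 in the high-light libraries, so the rows are not copies of each other. Whether the adjacent genes share reads was not tested.

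NO14G00440 was the other gene that fell. It stood at 5.73, 3.58 and 5.71 TPM in HL_KO replicates 1 to 3 and at 17.3, 17.99 and 15.04 TPM in HL_WT replicates 1 to 3. The groups were separated by a wide gap. On the log2 scale the difference was -1.72 (SE 0.27; edgeR adjusted p = 0.0417), or 3.29-fold lower. The HL_OE libraries held 2.88, 2.05 and 2.39 TPM, below the knockout-labelled libraries, and share the wild-type controls with them.

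Among the 7 genes that rose, NO13G01090 had the largest fold change. Its levels were 69.7, 105 and 91.8 TPM in HL_KO replicates 1 to 3 and 11.2, 15 and 31.5 TPM in HL_WT replicates 1 to 3. HL_WT replicate 3 was the highest wild-type library and still lay well below the lowest knockout-labelled one. On the log2 scale the difference was 2.31 (SE 0.32; edgeR adjusted p = 0.0326), or 4.96-fold higher. The HL_OE libraries held 78.3, 71.6 and 81.5 TPM, within the range of the knockout-labelled ones.

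NO15G01410 stood at 21.5, 26.4 and 13.7 TPM in HL_KO replicates 1 to 3 and at 4.21, 7.00 and 5.96 TPM in HL_WT replicates 1 to 3. The groups did not overlap, although HL_KO replicate 3 was much lower than its companions. On the log2 scale the difference was 1.91 (SE 0.32; edgeR adjusted p = 0.0485), or 3.76-fold higher. The HL_OE libraries held 17.4, 20.3 and 11.3 TPM, again spanning a wide range above wild type. The other 5 genes that rose did so by 2.47-fold to 3.75-fold, and the one with 3.75-fold is the first ID of its series. The one that rose 2.47-fold is described for its high level, after its values were seen. It stood at 320, 387 and 273 TPM in HL_KO replicates 1 to 3 and at 128, 152 and 137 TPM in HL_WT replicates 1 to 3, with every knockout-labelled library above every wild-type one.

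**Figure D3:**
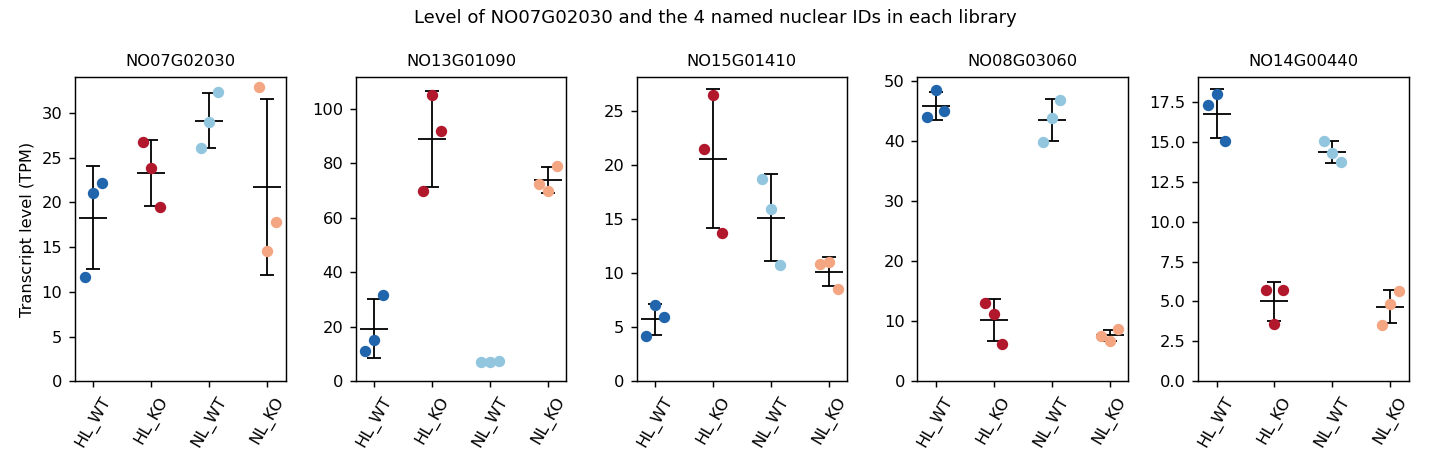
Transcript level (TPM) of NO07G02030 and of the 4 nuclear IDs in each of the 12 libraries, with points for libraries, a horizontal mark for the group mean and bars for the SD (n = 3). NO08G03060 and NO14G00440 lie low in both knockout-labelled groups and NO13G01090 high in both, whereas NO15G01410 is low in HL_WT (4.21 to 7.00 TPM) beside the other 3 groups.

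The light level at which the genes differed was examined with the normal-light libraries, which are other cultures but enter the same estimate of spread. There 3 of 9794 genes (0.0306%) were called between NL_KO and NL_WT, 2 higher and 1 lower, and 2 of them were among the 10 called at high light. NO08G03060 was called again, at 7.54, 6.73 and 8.62 TPM in NL_KO and 39.9, 43.8 and 46.8 TPM in NL_WT (log2 fold change -2.43 with SE 0.28, edgeR adjusted p = 0.00536). NO13G01090 was the other, at 72.3, 69.9 and 79.1 TPM in NL_KO and 7.01, 6.89 and 7.32 TPM in NL_WT (log2 fold change 3.46 with SE 0.34, edgeR adjusted p = 0.00259). NO14G00440 stood at 3.54, 4.87 and 5.63 TPM against 15.1, 14.3 and 13.7 TPM without passing the test (log2 fold change -1.54 with SE 0.27, edgeR adjusted p = 0.106). All 3 genes that fell at high light, and 1 of the 7 that rose, had separated groups at normal light in the same direction. Over all tested genes, the normal-light groups were separated on the lower side in 6.27% and on the higher side in 9.63%, so 1 of 7 is near the background.

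The remaining genes that rose at high light showed another pattern. In 5 of the 7, NO15G01410 included, the normal-light log2 fold change was below 0. NO15G01410 stood at 10.9, 10.99 and 8.57 TPM in NL_KO and at 18.7, 15.9 and 10.8 TPM in NL_WT, so the wild-type libraries tended to be the higher ones there and the groups overlapped (log2 fold change -0.52 with SE 0.30, edgeR adjusted p = 0.703). The difference between light levels was itself tested. Of the 7 genes that rose, 6 had a difference larger at high light by 1.34 to 2.43 on the log2 scale. NO13G01090 went the other way, with a difference smaller at high light (-1.15, SE 0.44). All 7 had an unadjusted p under 0.05 in that test and the 3 that fell had none, against 10.5% of all tested genes (1031, of which 657 were positive). Adjusted over all genes, edgeR called 0 differences between light levels, with a smallest adjusted p of 0.221, while DESeq2 called 123. For NO15G01410 the light difference was 2.43 on the log2 scale (SE 0.44, adjusted p = 0.221, edgeR). Since the 7 were chosen on the high-light libraries that also enter this test, their unadjusted values are a description.

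**Figure D4:**
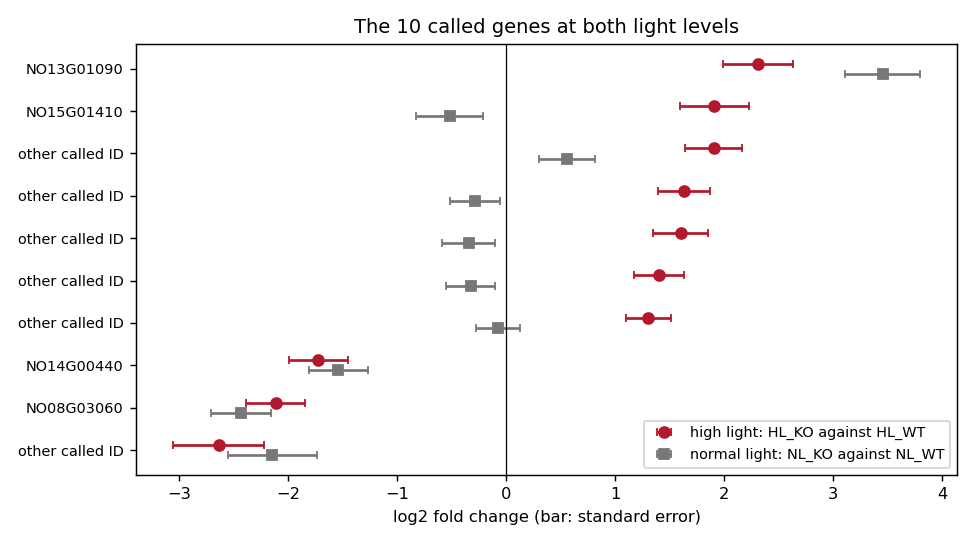
Log2 fold change with its standard error of the 10 called genes at high light (red circles, HL_KO against HL_WT) and at normal light (grey squares, NL_KO against NL_WT). The 3 genes that fell, NO13G01090 and the first ID of the NO01 series keep their side of 0 at both light levels, and the other 5 of the genes that rose at high light lie below 0 at normal light.

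Across all tested genes the difference was small in the middle and uneven in the tails. The median log2 fold change was -0.01, and the middle 50% of genes lay between -0.25 and 0.28. At least 2-fold differences were more often in favour of the knockout-labelled libraries, with 546 genes higher and 30 lower, whereas at normal light the same count gave 137 higher and 142 lower. The excess of higher genes was kept in each fit that left out a high-light library. The closest counts were 658 higher and 283 lower without HL_KO replicate 1, and the widest gap was 942 against 89 without HL_WT replicate 1. Without both libraries that stood apart the counts were 847 and 26. At an unadjusted p under 0.05 there were 906 higher and 370 lower genes, together 13% of those tested. Groups without overlap were less uneven, with 956 genes higher and 704 lower. By that measure normal light leaned the same way, with 943 genes higher and 614 lower.

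Large differences in either direction were mainly at low level. With the tested genes cut by mean level into 5 equal bins, 51.3% of the 546 higher and 70% of the 30 lower genes lay in the lowest bin, where the median log2 fold change was 0.15, against -0.04 to -0.02 in the other bins. That lowest bin had a median level of 7.05 CPM in the high-light libraries. In 36 of the 546 genes all HL_WT libraries held fewer than 10 counts, so those fold changes rest on few reads. Of the 546, 49 were also at least 2-fold higher at normal light and 22 were at least 2-fold lower there. No gene had 10 or more counts in each library of one high-light group and 0 in each library of the other. Among the 100 transcripts of highest mean TPM, 0 were called in edgeR, 12 had an unadjusted p under 0.05, 6 of them higher, and the median log2 fold change was -0.02.

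A wider fit, with the overexpression libraries sharing the estimate of spread, called 360 genes (3.63% of 9912), 322 higher and 38 lower, and these included all 10. The replicates of the overexpression groups are far more alike than those compared here, with a biological coefficient of variation of 8.37% in HL_OE against 34.8% in HL_KO and 28% in HL_WT. Of the 360 genes, 357 had separated groups, against 16.9% of all genes tested in the fit of 12 libraries. They were called on these same high-light libraries, so the separation adds no support to the calls. In the edgeR fit without the overexpression libraries, 156 of the 360 had an adjusted p under 0.1.

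Organelle transcripts were few. The labels give the molecule as polyA RNA, and organelle counts then depend on what such a selection keeps. Of 160 organelle genes, 54 were tested, 36 of the plastid and 18 of the mitochondrion. The 106 that were not tested had at most 73 counts in any high-light library, and 36 of them had 0 in all 6. Of the 54, 0 were called by edgeR, and DESeq2 called 0 of the 37 with at least 1 CPM. In edgeR 4 of the 54 had an unadjusted p under 0.05, where 13% of all tested genes did. Their fold changes were positive in 45 genes and negative in 9, with a median log2 value of 0.41 against -0.01 over all tested genes. Groups were separated in 3 of the 54, 2 higher and 1 lower, which is a smaller share than the 16.9% of all tested genes. The organelle share of all counts was 173.7 ± 77.5 CPM in HL_KO and 140.6 ± 82.3 CPM in HL_WT (mean ± SD, n = 3; exact permutation p = 0.5, adjusted p = 0.667 over 4 tests). Without HL_KO replicate 2 the difference of the means turned from 33.1 CPM higher to -7.34 CPM.

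In the plastid photosystems, 6 of 30 genes were tested, 3 with positive and 3 with negative fold changes, and 0 were called. psbA, which encodes the D1 protein of photosystem II, was the most abundant organelle transcript in every high-light library but HL_KO replicate 2. It stood at 56.7, 62.1 and 74.0 TPM in HL_KO replicates 1 to 3 and at 123, 55.6 and 53.5 TPM in HL_WT replicates 1 to 3. HL_WT replicate 1 lay above all other HL_KO and HL_WT libraries, so the groups overlapped (log2 fold change -0.25 with SE 0.48, edgeR adjusted p = 0.847). HL_WT replicates 2 and 3 lay narrowly below every HL_KO library. Without HL_WT replicate 1 the log2 fold change was 0.43, so the direction rests on that library. psbB, for the antenna protein CP47, was the tested organelle gene with separated groups on the lower side. It stood at 0.632, 0.572 and 0.980 TPM in HL_KO and at 2.10, 1.32 and 1.08 TPM in HL_WT (log2 fold change -1.01 with SE 0.58, edgeR adjusted p = 0.482). The gap between the groups is narrow and the levels are low. psbD, for the D2 partner of D1, had a log2 fold change of 0.85 (SE 0.62), and psbC, for the antenna protein CP43, one of 0.09 (SE 0.56). The photosystem I core genes psaA and psaB stood at 0.22 (SE 0.65) and -0.02 (SE 0.58).

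Downstream of the photosystems, values were equally wide. Of 10 cytochrome b6f and electron transport genes 3 were tested, all with positive fold changes, and the highest was that of ccs1, which serves the assembly of c-type cytochromes. ccs1 stood at 0.596, 3.58 and 2.25 TPM in HL_KO and at 0.879, 0.390 and 0.585 TPM in HL_WT (log2 fold change 1.86 with SE 0.81, edgeR adjusted p = 0.359). Its HL_KO replicate 1 lay within the wild-type range. Of 7 genes of the plastid ATP synthase 4 were tested, 2 in each direction, and atpB, for its beta subunit, had a log2 fold change of 0.73 (SE 0.87). Among 5 tested genes of carbon fixation and metabolism, of 10, 4 were positive. rbcL, for the large subunit of Rubisco, stood at 3.00, 5.08 and 4.82 TPM in HL_KO and at 5.90, 2.45 and 3.83 TPM in HL_WT, with overlapping groups (log2 fold change 0.12 with SE 0.60, edgeR adjusted p = 0.946). ilvB, for acetolactate synthase of branched-chain amino acid synthesis, had 1.31 (SE 0.77), and thiG, for thiazole synthesis in the thiamine pathway, 0.16 (SE 0.73).

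Plastid gene expression was represented by 9 tested genes of 48, 8 with positive fold changes. tufA, the elongation factor that brings tRNAs to the plastid ribosome, stood at 7.02, 34.1 and 26.7 TPM in HL_KO and at 31.2, 8.92 and 15.02 TPM in HL_WT. The lowest and the highest of the 6 values both came from HL_KO (log2 fold change 0.35 with SE 0.63, edgeR adjusted p = 0.832). rpl21, a protein of the large ribosomal subunit, stood at 6.04, 48.9 and 22.2 TPM in HL_KO and at 39.5, 3.56 and 5.87 TPM in HL_WT, a still wider range (log2 fold change 0.79 with SE 1.03, edgeR adjusted p = 0.767). In both genes the highest wild-type value was that of HL_WT replicate 1 and the highest knockout-labelled value that of HL_KO replicate 2, which had the highest organelle shares among the high-light libraries. The small-subunit genes rps2 and rps10 had log2 fold changes of 0.37 (SE 0.96) and -0.40 (SE 0.70).

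Of 11 plastid genes of protein quality and transport, 6 were tested and 5 were positive. The chaperone gene dnaK stood at 3.43, 6.25 and 2.28 TPM in HL_KO and at 3.82, 1.40 and 1.07 TPM in HL_WT, with overlap through HL_WT replicate 1 (log2 fold change 0.94 with SE 0.70, edgeR adjusted p = 0.585). The chaperonin gene groEL had 1.42 (SE 1.00), the translocase gene secA 0.36 (SE 0.84) and the protease gene ftsH 0.29 (SE 0.69). Of the 3 tested plastid genes outside the role lists, ycf54 and ycf59 belong to a step of chlorophyll synthesis known from cyanobacteria, the cyclase that closes a ring of the pigment. ycf54 ranged from 3.95 TPM in HL_KO replicate 1 to 156 TPM in HL_KO replicate 2, with 37.5 TPM in HL_KO replicate 3 and 49.7, 9.64 and 12.2 TPM in HL_WT replicates 1 to 3 (log2 fold change 1.82 with SE 1.15, edgeR adjusted p = 0.522). The lowest and the highest of its 6 levels both came from HL_KO. ycf59 had a log2 fold change of 1.71 (SE 0.95) and ycf46 one of 0.19 (SE 0.76).

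The mitochondrial respiratory chain had 13 tested genes of 18, 12 with positive fold changes, a median log2 value of 0.45 and 0 called. nad9, for a subunit of NADH dehydrogenase (complex I), had the smallest p of the organelle genes. It lay under the 1 CPM set for describing organelle genes and is named after its values were seen. It stood at 2.22, 7.52 and 3.14 TPM in HL_KO and at 1.56, 0.317 and 0.325 TPM in HL_WT, without overlap (log2 fold change 2.61 with SE 0.92, edgeR adjusted p = 0.249). These levels came from 7, 24 and 10 counts in HL_KO and 5, 1 and 1 in HL_WT, so the fold change and the separation rest on few reads. cox2, for a subunit of cytochrome c oxidase, was the other separated gene, at 5.39, 6.44 and 5.50 TPM in HL_KO and 4.39, 3.49 and 3.52 TPM in HL_WT (log2 fold change 0.67 with SE 0.49, edgeR adjusted p = 0.579). All 6 levels were of similar size. cox1, of the same enzyme, stood at 9.70, 24.0 and 8.80 TPM in HL_KO and at 22.6, 9.59 and 9.18 TPM in HL_WT. One library in each group was high and the others were alike (log2 fold change 0.08 with SE 0.57, edgeR adjusted p = 0.963).

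Other complex I genes ranged from nad5 at -0.36 (SE 0.83) through nad7 at 0.02 (SE 0.55), nad2 at 0.45 (SE 0.70) and nad11 at 0.87 (SE 0.84) to nad4 at 1.38 (SE 0.74) and nad1 at 1.39 (SE 0.63), all as log2 fold changes. cox3 had 1.22 (SE 0.63), cob, for cytochrome b, 0.21 (SE 0.55), and the ATP synthase genes atp1 and atp6 0.26 (SE 0.61) and 0.04 (SE 0.42). Of 17 mitochondrial ribosomal protein and transport genes 5 were tested, all positive and 0 called. rpl2 stood at 5.98, 24.8 and 4.11 TPM in HL_KO and at 4.32, 5.90 and 4.03 TPM in HL_WT, so its log2 fold change of 1.44 (SE 0.65, edgeR adjusted p = 0.373) came from HL_KO replicate 2 and was 0.11 without it. rps4, of the small ribosomal subunit, had 0.17 (SE 0.89). Over the 37 organelle genes of at least 1 CPM, 32 had positive fold changes with all libraries and 18 without HL_KO replicate 2, and 36 without HL_WT replicate 1.

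**Figure D5:**
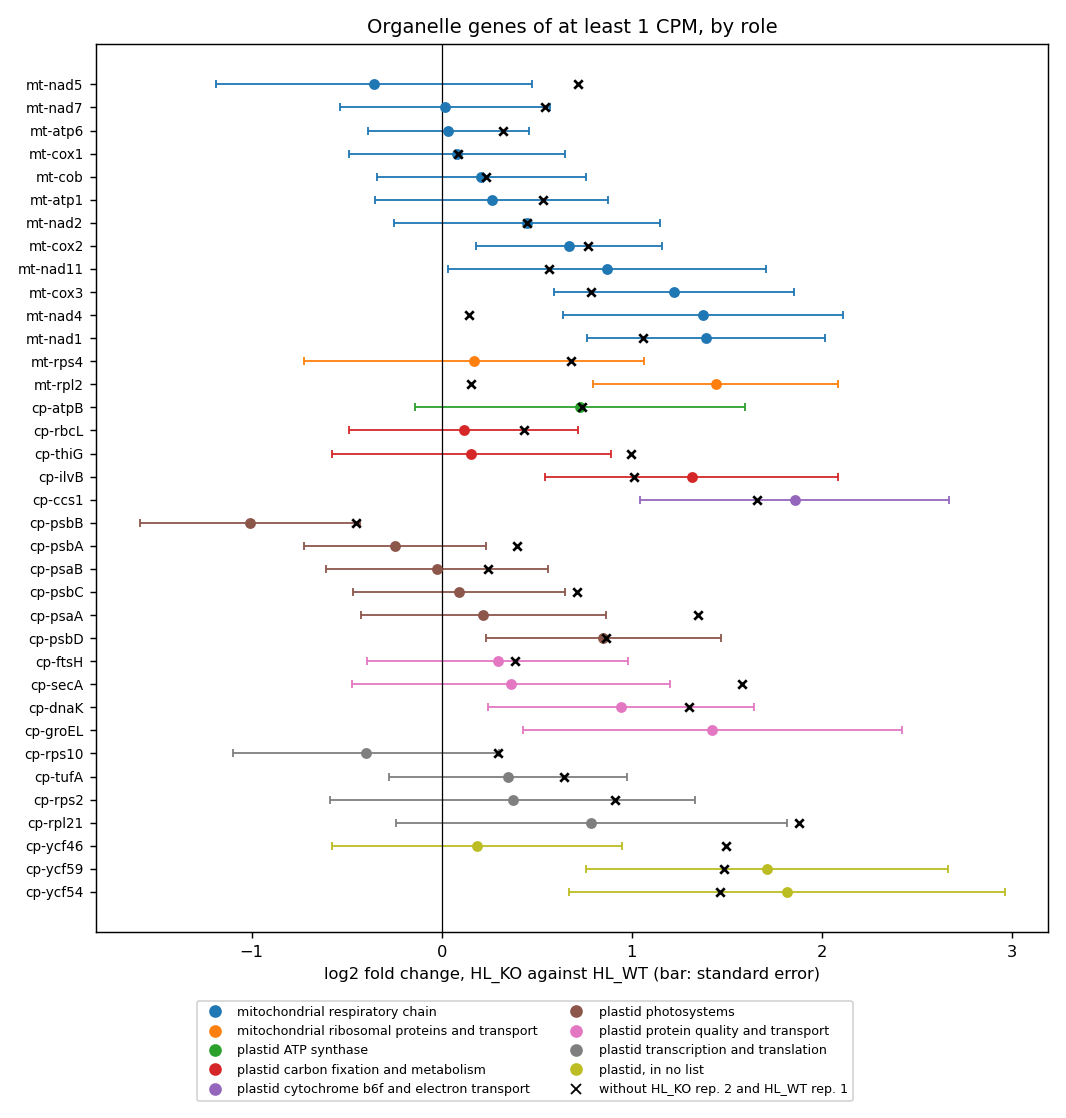
Log2 fold change of HL_KO against HL_WT with its standard error for 36 organelle genes with a mean of at least 1 CPM in either group, coloured by role; crosses give the value without HL_KO replicate 2 and HL_WT replicate 1, where the gene was still tested. Most points lie to the right of 0 (31 of 36), and 0 were called.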

How the data were processed

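The expected counts deposited by the authors are estimated reads per gene with no normalization; at least 96.3% of values per library were whole, and they were rounded before testing. The TPM values deposited by the authors are scaled for gene length and library total and were used for levels. Salmon, STAR, Picard and Trim Galore are listed in the submitters' processing notes, and no source used here gives their versions, the genome build or the annotation. A RefSeq gene table (assembly ASM5162214v2) matched 160 of 160 organelle symbols and 0 of 10333 nuclear IDs.

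Counts of the 12 knockout-labelled and wild-type libraries (14614662 to 16477032 each) went into a model in edgeR 4.0.16 under R 4.3.3 (robust quasi-likelihood F test, TMM, filterByExpr, which removed 699 genes). p values were adjusted by Benjamini-Hochberg over all tested genes. The overexpression libraries stayed out because their replicates vary far less. The edgeR p values set a difference against the spread between flasks, estimated from the 12 libraries, and do not cover differences between clones. The members, lists and tests were chosen with earlier results of these data known. Nuclear IDs were named if called, at 10 CPM or more in either group and without overlap, ordered by how many of 12 leave-one-out fits also called them and then by fold change, at most 2 in each direction. Organelle genes were described at 1 CPM or more, except 1 that is not reported here. Groups were judged as overlapping on TMM-scaled CPM. Alternatives used DESeq2 1.42.0 and limma 3.58.1. The method was tested on simulated data. The simulated libraries held no shared differences like those on the first principal component here, so their effect was not covered. Fold changes of genes with few counts depend on the prior count of edgeR.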

Additional observations from a re-analysis of the deposited data

How the results depend on the processing

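The number of genes called between HL_KO and HL_WT, 10 in edgeR, stayed at 10 with DESeq2's size factors and with no filter. It was 359 in DESeq2, 31 with at least 5 CPM in 3 libraries, 360 with all 18 libraries, 4 with voom and quality weights per group on all 18 libraries, 2 of them among the 10, and 38, 36 and 37 in limma on log2(TPM + 1), log2(TPM + 0.1) and log2(TPM + 1) without a filter. It was 0 in the 6 high-light libraries alone and 323 for DESeq2 on them. It was 0 without both HL_KO replicate 2 and HL_WT replicate 1, and 99, 6 of them among the 10, without the 4 libraries of highest organelle share; these last 3 alternatives were chosen after seeing the data. Leaving out 1 library gave 0 to 62. Calls that depend on light were 0 in edgeR, 123 in DESeq2, 60 with all 18 libraries and 0 to 2 with 1 library left out. The replicate block gave 0 calls; by the rule that every pair exceed 0.1 the numbers were not taken to pair the samples. Same-numbered deviations correlated at -0.651, -0.367 and -0.253 between HL_KO and HL_WT and at -0.37, 0.0513 and -0.223 between NL_KO and NL_WT, but at 0.522, 0.0837 and 0.106 between HL_KO and NL_KO and at 0.22, 0.0778 and 0.122 between HL_WT and NL_WT. The cause of these changes was not tested.

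With 1 library left out, the HL_KO minus HL_WT difference in CPM ran from -7.34 to 80.6 for organelle counts, -4.88 to 49.6 for plastid counts and -3.67 to 31.8 for mitochondrial counts. Log2 fold changes that changed sign then ran as follows in the plastid: atpB -0.056 to 1.532, ftsH -0.494 to 1.184, psaA -0.406 to 1.036, psaB -0.263 to 0.373, psbA -0.491 to 0.434, psbC -0.242 to 0.744, rbcL -0.178 to 0.645, rpl21 -0.2 to 2.863, rps10 -1.104 to 0.114, rps2 -0.322 to 1.619, secA -0.109 to 1.655, thiG -0.271 to 1.415, tufA -0.151 to 1.151, ycf46 -0.301 to 1.618. In the mitochondrion they ran as follows: atp1 -0.245 to 1.046, atp6 -0.081 to 0.207, cob -0.263 to 0.72, cox1 -0.638 to 0.813, nad11 -0.552 to 1.993, nad2 -0.219 to 1.125, nad4 -0.295 to 1.87, nad5 -0.771 to 0.22, nad7 -0.277 to 0.845, rps4 -0.276 to 1.135. Without both libraries that stood apart, psaB was 0.24, psbA 0.39, rps10 0.30 and nad5 0.72, and psaA and atp6, which kept their sign, were 1.348 and 0.325. atp6 was -0.051 in limma on log2(TPM + 1) with or without the filter and -0.066 on log2(TPM + 0.1), and cox1 was -0.073 with the replicate block. Low organelle counts limit these values.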

Other observations

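The genes on either side of the named ones were examined in ID order, 10 tested IDs each way. Around NO07G02030, 0 of 20 were called, 2 had an unadjusted p under 0.05 in edgeR, both higher in HL_KO, and the median log2 fold change was 0.20. Around NO08G03060, leaving aside the called ID before it, 0 of 19 were called, 4 had an unadjusted p under 0.05, all higher, and log2 fold changes ran from -0.44 to 1.11. Around NO14G00440, 0 of 20 were called, and 2 had an unadjusted p under 0.05. Around NO13G01090 and NO15G01410, 0 of 20 were called in each case and 3 and 4 had an unadjusted p under 0.05. Over all tested genes 13% had one.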
